A study of Sus scrofa with 20 samples.

Results

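Transcripts of 8 genes that cut, trim and store peptide hormones were followed in the hypothalamus of young pigs. They are the prohormone convertases PCSK1 and PCSK2, carboxypeptidase E (CPE), the granins CHGA, CHGB, SCG2 and SCG3, and the convertase chaperone SCG5. They were chosen by pig gene symbol, each matched 1 of 25880 gene rows, and all 8 passed the filter on low counts that left 7090 genes for testing. The hypothalamus of 20 pigs aged 2 months was sequenced, 5 in each of 4 groups. The groups were pure Iberian females, pure Iberian males, and crossbred (Iberian x Large White) females and males; no treatment or altered gene is given in the labels, and Iberian parentage is shared by all. The comparisons asked whether these transcripts differed between the breeds, between the sexes, or between breeds in a way that depended on sex.

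Peptide hormones and neuropeptides are made as long precursors that enter the regulated secretory pathway. Granins help to gather them into dense-core granules, convertases cut them after paired basic residues, and CPE removes the basic residues left at the cut ends. In the hypothalamus this machinery matures the peptides that act on feeding, growth, water balance and the pituitary, and the same genes are active in endocrine cells such as those of the anterior pituitary.

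Counts assigned to genes came to 1430138 to 2384615 per library, of which the 8 genes together took 0.0424 to 0.154%. Genes took 4.04 to 4.62% of all entries, 80.2 to 88.1% fell on no gene, and the mitochondrial messenger ND6 outnumbered another, COX1, by 19.8 to 141 times. No source used here states how strand was treated, so each value below may hold reads of the gene's own strand, of the other strand alone, or of both. Of 16 matched hypothalamus markers, FEZF1, NKX2-2, AVP, HCRT, OTP, SIX3 and SIX6 had counts in every library, HCRT as few as 3. SIM1, RAX and LHX9 had 0 to 3 counts per library, and OXT, PMCH, ISL1, HMX2, HMX3 and NR5A1 reached 0 in some library. One library, Iberian male replicate 5, held pituitary transcripts, with 157 counts of PRL (at most 4 in any other library), 163 of CGA (at most 2) and 111 of FSHB (at most 2). Summed over the 11 matched of 16 pituitary markers it had 472 counts, against 7 to 23 in the other 19 libraries, with POU1F1, TBX19 and TSHB at 1 or 2 counts and CRHR1 at 0. Results for the 8 genes are therefore given with and without that library. In bulk tissue, fewer cells of a type and less RNA per cell cannot be told apart.

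None of the 8 genes passed the test between breeds (where 0.226% of all tested genes did), between sexes or for the interaction, with or without Iberian male replicate 5. In that library alone 6 of the 8 (CHGB, PCSK1, CHGA, PCSK2, SCG5 and SCG2) had their highest level of all 20 libraries, SCG3 had its lowest, and CPE lay inside the range of the others. Of all tested genes, 23.6% were highest and 20.4% lowest there. Levels below are CPM, counts scaled for library size and composition.

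Counted over the group, 0 of 8 genes were called between breeds, while 0.226% of all 7090 tested genes were. The fitted breed values were below 0 for 6 of 8, with a median of -0.15 against -0.00 over all tested genes, and for 4 of 8 without Iberian male replicate 5, with a median of -0.01 against 0.01; 0.313% of genes were called there. In males 0 of 8 were called against 0.0282% of all genes, with a median of -0.42, and 5 of 8 values were above 0 without that library, with a median of 0.05 and 0.0951% of all genes called. In females 0 of 8 and 0% of all genes were called, with 4 of 8 values above 0; without that library 0.109% of genes were called, and none of the 8. Between sexes 0 of 8 and 0.0705% of genes were called, with 7 of 8 values higher in males, and 5 of 8 without that library, where 0.068% were called. For the interaction 0 of 8 and 0.0141% of genes were called (0 of 8 and 0.0136% without that library). At an unadjusted p under 0.05 edgeR had 0 of the 8 genes between breeds (7.48% of all genes), 1 in males (CHGB; 10.7%), 0 in females (5.53%), 1 between sexes (CHGB; 3.6%) and 0 for the interaction (8.36%), so 1 gene of 8 was close to the share of all genes in males. In the 19 other libraries that level was met by PCSK1 in females (7.88% of all genes), and by 0 of 8 between breeds (8.98%), in males (11.8%), between sexes (4.05%) and for the interaction (10.2%). DESeq2 gave no p for CHGB in any comparison, and in males no adjusted p for PCSK1, PCSK2 and SCG5 either. Of the genes it could call, it called 0 of 4 in males (0.504% of all genes) and 0 of 7 between breeds (0.382%), in females (0%), between sexes (0.0707%) and for the interaction (0.0283%). Its unadjusted p was under 0.05 for CHGA between sexes (3.24% of all genes), and for 0 of 7 between breeds (6.91%), in females (5.2%), in males (10.2%) and for the interaction (7.81%).

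**Figure D1:**
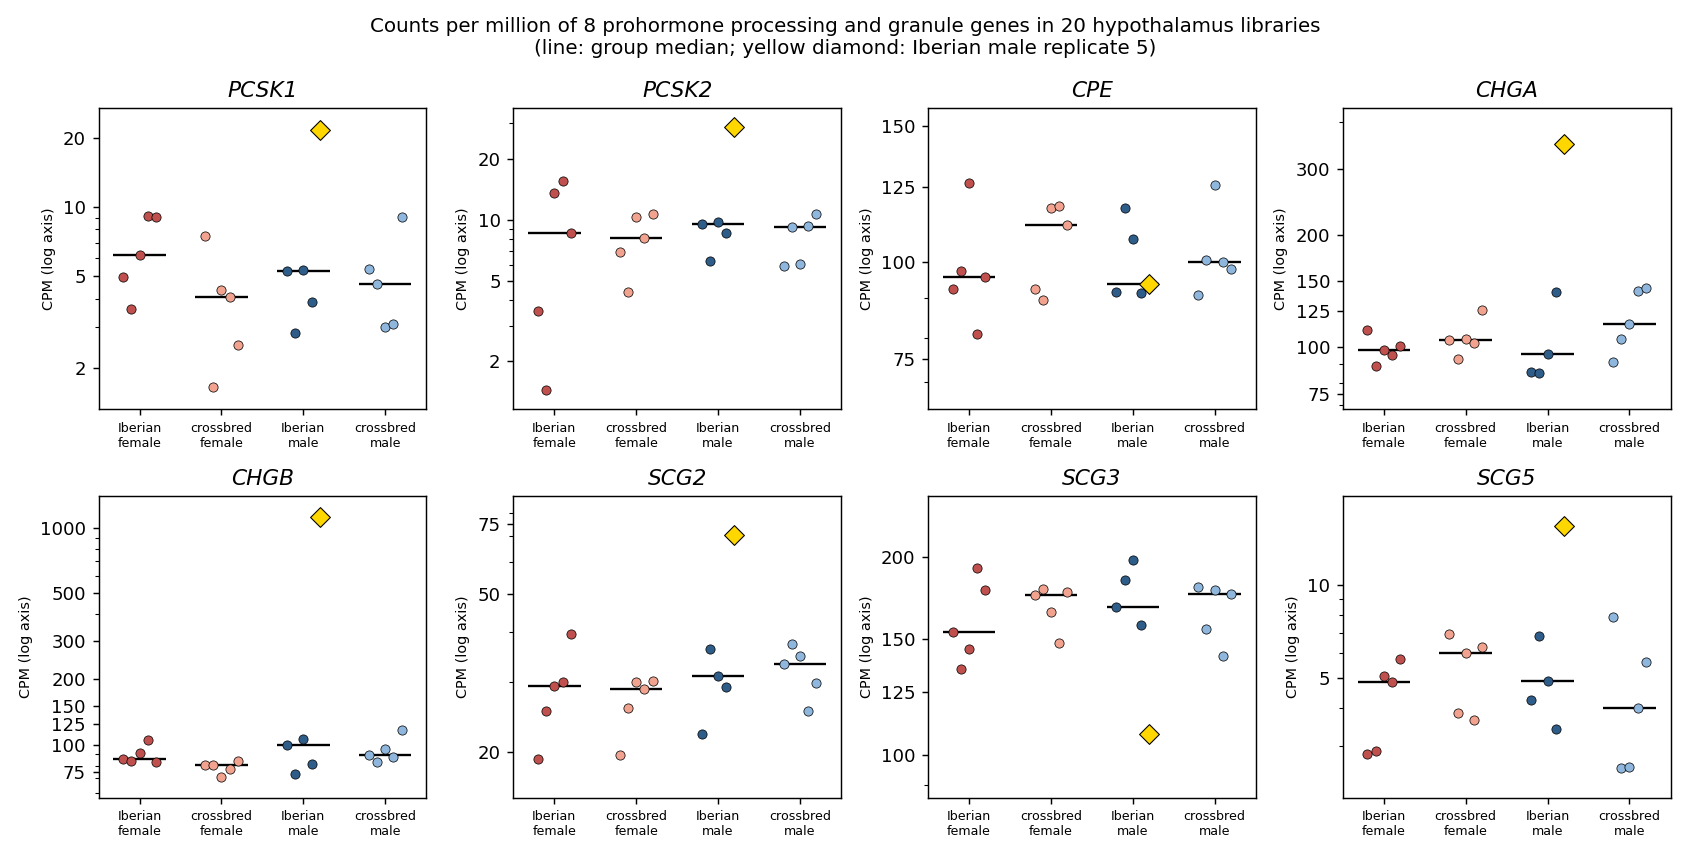
Level of each gene in each library, in CPM on log axes that differ between panels, by breed and sex; each point is 1 library, the line is the median of 5, and the yellow diamond is Iberian male replicate 5. The diamond is the highest point for 6 genes, with CHGB at 1122 CPM, and the lowest for SCG3 at 108 CPM.

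The convertases had few counts. PCSK1, which makes the first cuts in many precursors, lies on chromosome 2 (103004794 to 103050707, Sscrofa11.1) inside the span of the long noncoding locus LOC106508433, so reads of both may not be told apart. It had 3 to 28 counts per library, with a median of 9.5. In Iberian females replicates 1 to 5 measured 4.98, 3.62, 6.19, 9.19 and 9.10 CPM, and in crossbred females 7.51, 1.65, 4.37, 4.06 and 2.51. In Iberian males the values were 5.29, 2.84, 5.31, 3.86 and 21.7 CPM, and in crossbred males 5.40, 4.61, 3.01, 3.11 and 9.03. The groups overlapped in both sexes, and the single value of 21.7, in Iberian male replicate 5, was 2.36 times the next highest. The log2 breed difference over 20 libraries was -0.64 (SE 0.33, edgeR adjusted p = 0.669), and without that library it was -0.30 (SE 0.27, edgeR adjusted p = 0.803). In females alone PCSK1 was at 6.62 ± 2.48 CPM in Iberian and 4.02 ± 2.25 in crossbred animals (SD, n = 5 each), a log2 difference of -0.76 with and without that library (edgeR adjusted p = 0.945 and 0.626). Only 1 of 5 crossbred females lay above the Iberian female median.

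PCSK2 makes the later cuts that release many smaller neuropeptides, and spans 25681424 to 25920690 of chromosome 17. It had 2 to 37 counts per library with a median of 18. Iberian females ranged most widely, at 3.55, 1.45, 13.5, 15.5 and 8.62 CPM. Crossbred females lay between 4.39 and 10.7 CPM, crossbred males between 5.89 and 10.7, and the first 4 Iberian males between 6.25 and 9.74, with Iberian male replicate 5 at 28.7. The values of all groups overlapped. The breed difference was -0.34 (log2, SE 0.30, edgeR adjusted p = 0.838), and -0.12 (SE 0.25, edgeR adjusted p = 0.936) without Iberian male replicate 5, an interval of 0.650 to 1.31 times (95%) for crossbred against Iberian.

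SCG5 encodes the neuroendocrine protein that escorts the PCSK2 precursor and keeps it from acting too early. It lies at 136525920 to 136590021 of chromosome 1, with ARHGAP11A 3565 bp away. It was the least counted of the 8, with 4 to 20 counts per library and 193 over all libraries. Excluding Iberian male replicate 5, at 15.5 CPM, every library lay between 2.56 and 7.86 CPM. Its breed difference was -0.14 (log2, SE 0.28, edgeR adjusted p = 0.945), and 0.08 (SE 0.26, edgeR adjusted p = 0.957) without that library, where a difference between 0.738 and 1.51 times was allowed (95%). For PCSK1, PCSK2 and SCG5 the intervals were thus too wide to show a modest difference.

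CPE, the exopeptidase that trims basic residues and so makes most peptides of this pathway active, lies at 43568744 to 43695475 of chromosome 8. It had 121 to 292 counts per library. Iberian females measured 92.4, 97.6, 127, 80.8 and 95.8 CPM, Iberian males 91.6, 118, 107, 91.2 and 93.7. Crossbred females measured 92.4, 89.5, 117, 118 and 112 CPM, and crossbred males 90.9, 101, 126, 100.1 and 98.2. All 4 groups covered nearly the same range, and Iberian male replicate 5, at 93.7 CPM, ranked 13 of 20. Between breeds CPE stood at 99.5 ± 13.8 and 104 ± 12.8 CPM (SD, n = 10 each), with 0.07 as the fitted log2 value (SE 0.09, edgeR adjusted p = 0.896). Between sexes the difference was -0.01 (SE 0.09, edgeR adjusted p = 0.9999), and its sign turned without Iberian male replicate 5.

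CHGB, an acidic granin that is a major core protein of these granules, gave the widest spread. It lies at 14747282 to 14761995 of chromosome 17, and the nearest annotated gene is 9371 bp away. Iberian females measured 86.0, 83.9, 91.8, 105 and 82.8 CPM, and crossbred females 80.3, 80.7, 71.0, 76.8 and 84.1. Crossbred males measured 89.4, 82.9, 95.1, 87.2 and 117 CPM. Iberian males measured 99.5, 73.3, 106, 81.0 and 1122 CPM, the last with 1448 counts against 116 to 239 in every other library. That 1 value was 9.61 times the next highest and 13.3 times the median of the other 19. Without it the 4 groups overlapped and the Iberian males averaged 89.9 ± 15.3 CPM (SD, n = 4), against 94.3 ± 13.3 (SD, n = 5) in crossbred males.

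The breed and sex differences of CHGB rested on that library. With all 20 libraries CHGB was -0.91 between breeds (log2, SE 0.45, edgeR adjusted p = 0.666), -1.63 in males (SE 0.63, edgeR adjusted p = 0.357) and 0.98 between sexes (SE 0.45, edgeR adjusted p = 0.9999), the last value positive for higher in males. Without Iberian male replicate 5 the same differences were -0.07 (SE 0.08), 0.07 (SE 0.12) and 0.13 (SE 0.08), with edgeR adjusted p of 0.875, 0.869 and 0.999. The interval for crossbred against Iberian then ran from 0.848 to 1.08 times (95%). In females, which that library does not enter as a value, CHGB was at 89.9 ± 9.12 CPM in Iberian and 78.6 ± 4.96 in crossbred animals (SD, n = 5 each), and 0 of 5 crossbred females lay above the Iberian median. That difference was -0.20 (log2, SE 0.65, edgeR adjusted p = 0.998), and -0.20 (SE 0.12, edgeR adjusted p = 0.722) when Iberian male replicate 5 was left out of the shared estimate of the spread.

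CHGA, the granin first found in the adrenal medulla and a precursor of several peptides, lies at 114345542 to 114357799 of chromosome 7. The noncoding locus LOC106507757 lies 912 bp from it, without overlap. Iberian females measured 111, 88.9, 98.5, 95.3 and 101 CPM, and crossbred females 105, 92.8, 105, 103 and 126. Iberian males measured 85.8, 85.3, 96.1, 141 and 350.2 CPM, and crossbred males 91.4, 105, 115, 141 and 144. The highest value was again that of Iberian male replicate 5, and 8 of 10 crossbred animals lay above the Iberian median of 97.3 CPM. The breed difference changed sign with that library, from -0.11 (log2, SE 0.22, edgeR adjusted p = 0.945) with it to 0.16 (SE 0.10, edgeR adjusted p = 0.637) without it. Without it CHGA averaged 100.3 ± 17.1 CPM in Iberian animals (SD, n = 9) and 113 ± 18.7 in crossbred animals (SD, n = 10).

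SCG2, the precursor of secretoneurin, lies at 125420773 to 125426303 of chromosome 15 and had 27 to 91 counts per library. Iberian females measured 19.2 to 39.7 CPM with a median of 29.3, and crossbred females 19.6 to 30.1 with a median of 28.9. Crossbred males measured 25.3 to 37.4 CPM, and Iberian males 22.2 to 36.4 for replicates 1 to 4 and 70.5 for replicate 5. Males were at 35.01 ± 13.3 and females at 27.8 ± 5.89 CPM (SD, n = 10 each), with 8 of 10 males above the female median. The sex difference of SCG2 was 0.30 (log2, SE 0.16, edgeR adjusted p = 0.9999), and 0.14 (SE 0.12, edgeR adjusted p = 0.999) without Iberian male replicate 5. Between breeds it was -0.15 (SE 0.16, edgeR adjusted p = 0.868), and 0.00 (SE 0.13, edgeR adjusted p = 0.997) without that library.

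SCG3, which ties CHGA to the cholesterol-rich granule membrane, lies at 120045302 to 120090035 of chromosome 1, with LYSMD2 2156 bp away. It was the most counted of the 8, with 139 to 448 counts per library. Iberian females measured 154, 135, 145, 193 and 179 CPM, and crossbred females 176, 179, 165, 148 and 177. Iberian males measured 168, 185, 198, 158 and 108 CPM, and crossbred males 180, 156, 178, 141 and 176. Here Iberian male replicate 5 was the lowest of all 20 libraries, at 0.613 times the median of the others. SCG3 was at 162 ± 28.1 CPM in Iberian and 168 ± 14.3 in crossbred animals (SD, n = 10 each). The breed difference was 0.04 (log2, SE 0.09, edgeR adjusted p = 0.950), and -0.01 (SE 0.07, edgeR adjusted p = 0.971) without that library, which allowed 0.896 to 1.09 times (95%). The sex difference was 0.00 (SE 0.09, edgeR adjusted p = 0.9999), and its sign changed with the scaling and the tool.

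**Figure D2:**
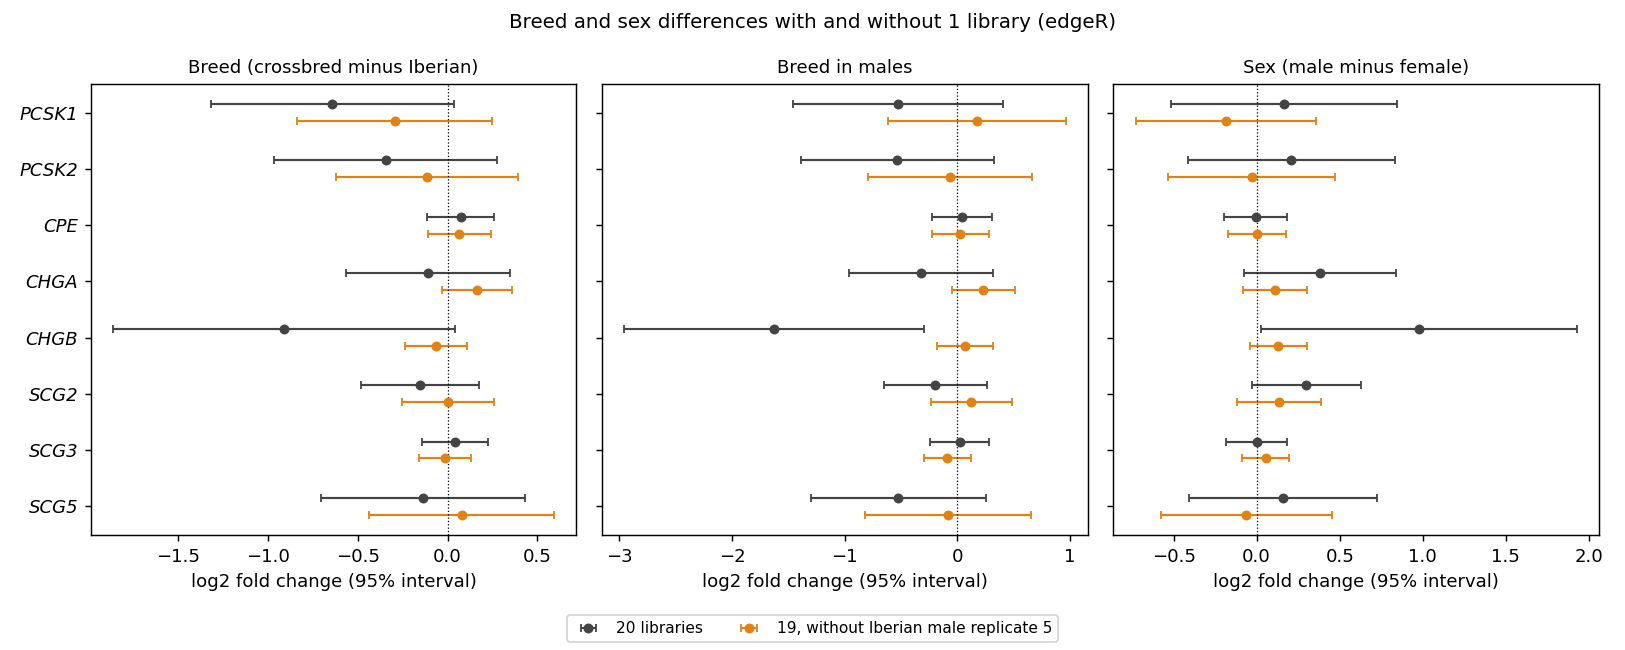
Log2 fold changes with 95% intervals from edgeR for the 8 genes, between breeds (crossbred minus Iberian), between breeds in males, and between sexes (male minus female); dark points use 20 libraries and orange points 19, without Iberian male replicate 5. CHGB moves from -0.91 to -0.07 between breeds and from -1.63 to 0.07 in males, while CPE and SCG3 hardly move.

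PCSK1 had the largest interaction value of the 8 without Iberian male replicate 5, at 0.93 (log2, SE 0.53, edgeR adjusted p = 0.530), with breed values of -0.76 in females and 0.17 in males. With that library the value was 0.23 (SE 0.66, edgeR adjusted p = 0.957). The interaction of CHGB was -1.43 (SE 0.90, edgeR adjusted p = 0.666) with it and 0.27 (SE 0.17, edgeR adjusted p = 0.564) without it. Neither gene's breed difference was thus shown to depend on sex.

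The make-up of the 8 transcripts within Iberian male replicate 5 does not depend on scaling between libraries. CHGB made up 62.0% of the 2336 counts of the 8 genes there (exact 95% interval 59.98 to 63.96%, counting error only), against 13.9 to 20.5% in the other 19 libraries. CHGB had 3.20 times the counts of CHGA in that library, and 0.576 to 1.16 times in the others. SCG3 made up 5.95% of the 8 genes' counts (5.03 to 6.99%), against 27.6 to 37.5% elsewhere, and CPE 5.18% (4.32 to 6.16%) against 15.2 to 24.5%. The share of CHGA, 19.3%, lay inside the range of 16.6 to 27.6% in the others. So did those of PCSK1 at 1.199%, PCSK2 at 1.58% and SCG5 at 0.856%. SCG2, at 3.90%, was below the 3.98 to 7.62% of the others although its CPM was the highest of 20. Shares sum to a fixed total, so the large share of CHGB lowers those of the other genes.

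**Figure D3:**
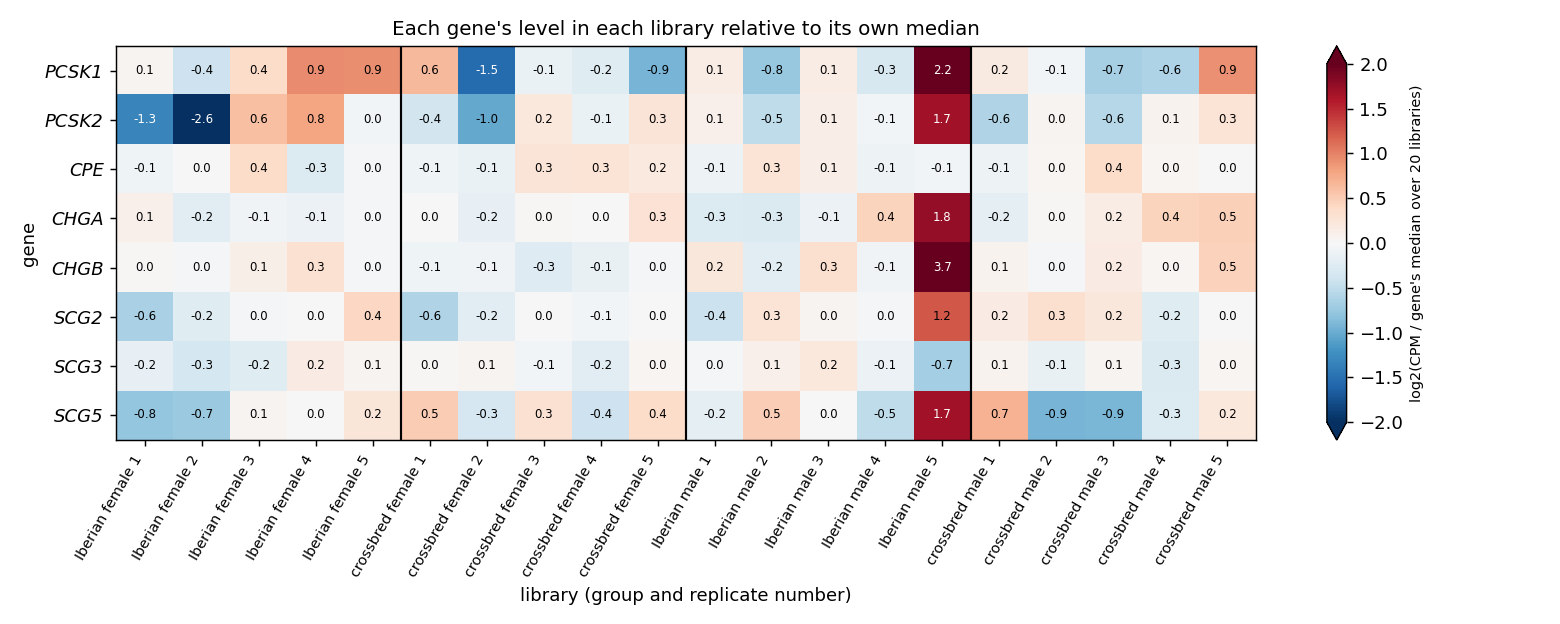
Level of each gene (rows) in each library (columns, by group and replicate), as the log2 ratio of its CPM to its own median over 20 libraries; red is above and blue below the median, and the colour scale stops at 2 while the printed values do not. The column of Iberian male replicate 5 is red for 6 genes and blue for SCG3, and PCSK1, PCSK2 and SCG5 vary most in the remaining columns.

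Iberian male replicate 5 stood apart for many genes. Of all tested genes, 23.6% were higher there than in each of the other 19 libraries and 20.4% were lower, while the same shares for any other library were 2.06 to 7.66% and 2.10 to 6.64%. ND6 took 23.7% of its gene counts against 5.37 to 9.997% elsewhere. Relative to the median of the others, CHGB stood at 13.3 times, PCSK1 at 4.71, CHGA at 3.41, PCSK2 at 3.33, SCG5 at 3.20 and SCG2 at 2.36 times. These ratios were 11.6, 4.05, 2.91, 2.82, 2.90 and 2.03 when scaled by total counts alone. CHGB ranked 9 of 7090 genes by this ratio. The 8 genes had a median log2 ratio of 1.71 against 0.04 over all tested genes. Summed pituitary markers stood at 366 CPM in that library against 3.58 to 9.85 in the others, while SCG3 was lowest there and CPE ranked 13. The part of pituitary transcripts in the result was not tested. Summed neuron markers were also highest there, at 1135 CPM against 711 to 878, with 7 of 13 tested markers above every other library, and none of the 16 matched markers was at 0.

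Spread between animals of 1 group was small once that library was set aside. The biological coefficient of variation of CHGB was 0.636 with it and 0.120 without it, and that of CHGA was 0.326 and 0.141. SCG3 had 0.146 and 0.109, CPE 0.141 and 0.127, and SCG2 0.223 and 0.147. Without that library the 3 genes with the fewest counts had the highest values, PCSK2 at 0.274, PCSK1 at 0.236 and SCG5 at 0.193.

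Libraries also fell into a high and a low set by their low-quality alignments. The high set (5.33 to 5.92% of entries) held every Iberian female plus males 2 and 3 of that breed. The low set (2.73 to 3.88%) held the remaining 3 Iberian males with the 10 crossbred animals, so breed in females and this split cannot be told apart. Within Iberian males the 2 libraries of the high set had more CPE (107 and 118 CPM) than the 3 of the low set (91.2 to 93.7), and more SCG3 (185 and 198 against 108 to 168). These were 2 of 8 genes, and 8.73% of all tested genes were likewise higher in the high set without overlap. Without Iberian male replicate 5 SCG2 and SCG5 joined them, 4 of 8 against 15.6% of all genes, with 2 libraries in each set. CHGA overlapped between the sets, at 85.3 and 96.1 against 85.8 to 350.2 CPM. Among males of the low set alone, 3 Iberian against 5 crossbred, the breed difference was 0.18 for CPE (log2, SE 0.16, edgeR adjusted p = 0.688), 0.20 for SCG3 (SE 0.17, edgeR adjusted p = 0.661) and -2.15 for CHGB (SE 0.87, edgeR adjusted p = 0.495), the last with Iberian male replicate 5 as 1 of the 3. With the split as a term in all 20 libraries the breed value of CHGB was -2.32 (SE 0.63, edgeR adjusted p = 0.240), that of PCSK1 -1.40 (SE 0.53, edgeR adjusted p = 0.310), that of CHGA -0.81 (SE 0.30, edgeR adjusted p = 0.324) and that of SCG3 0.33 (SE 0.15, edgeR adjusted p = 0.410). These 4 of 8 were under an unadjusted p of 0.05 in that fit, as were 11.3% of all genes. The same was true of 4 of 8 in females (7.14% of all genes), 2 in males (15%), 0 between sexes (2.37%) and 0 for the interaction (5.43%). In females that fit gave -1.89 for PCSK1 (SE 0.78, edgeR adjusted p = 0.694), a value that rests on the split among Iberian males. Without Iberian male replicate 5 it was -0.88 (SE 0.71, edgeR adjusted p = 0.996). In females 0 of 8 were then under an unadjusted p of 0.05 (4.84% of all genes). With that term and without Iberian male replicate 5, 0 of 8 were under that level between breeds (6.05% of all genes), CPE was 0.28 between breeds (SE 0.16, edgeR adjusted p = 0.862) and CHGB -0.07 (SE 0.16, edgeR adjusted p = 0.978).

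Other genes of prohormone processing did not pass between breeds either. Of 23 listed, 13 were tested, 0 were called in any of the 5 comparisons, and 8 had breed values above 0 (median 0.00). Leaving out Iberian male replicate 5 gave 0 called and 8 above 0 (median 0.01). The most counted were PCSK7, a convertase of the general secretory route, at 385 ± 29.6 CPM in Iberian and 432 ± 55.4 in crossbred animals (SD, n = 10 each), which gave 0.17 on the log2 scale with an SE of 0.07 (edgeR adjusted p = 0.564), and QPCTL, a Golgi enzyme that closes glutamine ends, with -0.02 (SE 0.06, edgeR adjusted p = 0.956). PCSK1N, whose product proSAAS inhibits PCSK1, measured 143 ± 45.2 against 129 ± 15.2 CPM (log2 -0.13, SE 0.12, edgeR adjusted p = 0.846), and its breed value was 0.01 without Iberian male replicate 5. In Iberian male replicate 5 it stood at 263 CPM against 98.2 to 157 in the others, and the granin-like VGF at 131 against 44.9 to 93.1. In all, 5 of these 13 genes (CTSB, ECE1, LGMN, PCSK1N and VGF) were above every other library there and 0 below, where 23.6% of all genes were above.

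Genes that form and acidify dense-core vesicles gave 25 tested of 38, with 0 called and 14 breed values above 0 (median 0.04), or 16 (median 0.03) without Iberian male replicate 5. The tethering subunit VPS52 was at 541 CPM on average, the adaptor subunit AP3D1 at 276 and the vesicle-associated ICA1 at 241, with breed values of 0.11, 0.04 and -0.18 (edgeR adjusted p of 0.956, 0.932 and 0.708). These values were -0.04, 0.01 and -0.07 without Iberian male replicate 5. VPS52 was at 44.9 CPM in that library against 495 to 636 elsewhere, and ICA1 at 462 against 180 to 294. In that library 6 of the 25 genes were above all others and 6 below, where 23.6% of all tested genes were above and 20.4% below.

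Genes of dense-core vesicle exocytosis gave 21 tested of 39, with 0 called and 15 breed values above 0 (median 0.02), or 12 (median 0.01) without Iberian male replicate 5. DOC2A, a calcium sensor, had a breed value of 0.05, the vesicle GTPase RAB3A 0.00 and the related RAB26 0.01 (edgeR adjusted p of 0.895, 0.9999 and 0.985). Without that library they were 0.01, -0.02 and -0.00. In Iberian male replicate 5 SYT5, a synaptotagmin of dense-core vesicles, was at 64.3 CPM against 4.62 to 19.7 in the others, and SYT7 at 17.8 against 2.95 to 13.1. There 6 of the 21 genes were above every other library, with DOC2A below, where 23.6% of all tested genes were above and 20.4% below.

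Of 48 peptide precursors listed as substrates, 35 were matched and 7 had enough counts to test, with 0 called and 3 breed values above 0 (median -0.05, and 3 with a median of -0.06 without Iberian male replicate 5). ADCYAP1, the precursor of PACAP, had -0.29 between breeds (log2, SE 0.12, edgeR adjusted p = 0.564), PENK, the enkephalin precursor, -0.05 (SE 0.15, edgeR adjusted p = 0.958) and AVP, the vasopressin precursor, -0.44 (SE 0.51, edgeR adjusted p = 0.882). Without that library these were -0.36, -0.06 and -0.21. In Iberian male replicate 5 the precursor GAL was above every other library, at 17.8 CPM against 1.88 to 8.94, while HCRT was below, at 2.32 against 4.55 to 14.4, and ADCYAP1 was below, at 27.1 against 32.6 to 60.7.

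**Figure D4:**
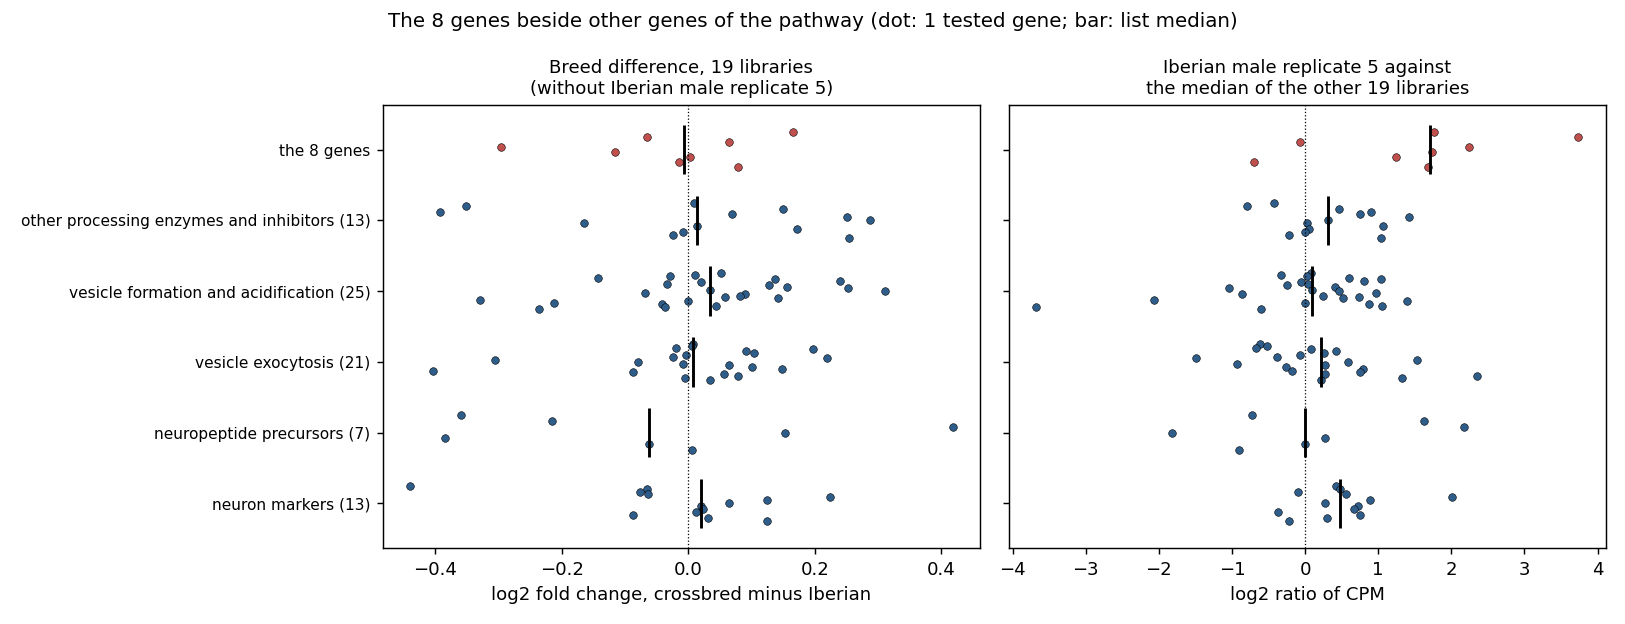
Each dot is 1 tested gene of the 8 genes, of 4 lists from the same pathway or of the neuron markers, and each bar is a list's median; the left panel gives the log2 breed difference (crossbred minus Iberian) in 19 libraries, the right panel the log2 ratio of CPM in Iberian male replicate 5 to the median of the others. The medians lie near 0 on the left, and on the right the 8 genes have a median of 1.71 and exocytosis genes 0.22.

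Pairs of the 8 genes varied in how alike their ranks across animals were. Likeness was measured as the mean absolute difference of 2 genes' ranks over 20 libraries, whose median over all genes was 6.5 to 6.7. Over the 28 pairs it ran from 4.10 for PCSK1 with PCSK2 to 8.10 for CHGA with SCG3, with a median of 5.85. SCG2 stood at 4.40 from SCG5 and 5.00 from SCG3. Without Iberian male replicate 5 the range was 4.32 to 7.79, the lowest shared by PCSK1 with PCSK2 and SCG2 with SCG3. The median of the pairs was then 5.79, against 6.32 to 6.42 over all genes. Ranks of PCSK1, PCSK2 and SCG5 rest on few counts, with medians of 9.5, 18 and 9.5 per library.

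The named genes closest in rank pattern to a member differed from gene to gene and are given as a description. For PCSK1 they were NLGN3, SPCS3 and MARK1 (3.10 to 3.30), for PCSK2 NRDC, PACS1 and NME2 (2.80 to 3.20), and for SCG5 PNISR, EIF4G2 and RPS21 (3.30 to 3.50). For CPE they were LGI3, SLC9A8 and RAVER1 (3.00 to 3.30), for CHGA NELFA, PRPF6 and SLC24A3 (2.80 to 3.00), and for CHGB CKB, NFE2L1 and MED25 (3.00 to 3.20). For SCG2 they were KIF7, FBXL22 and CANX (2.90 to 3.10), and for SCG3 TTLL9, VPS29 and SLC7A9 (2.70 to 2.90). Without Iberian male replicate 5 the same 3 genes were found for PCSK2, 2 of 3 for SCG3 (TTLL9 and SLC7A9), 1 of 3 each for CPE, CHGA, CHGB, SCG2 and SCG5, and 0 for PCSK1.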

How the data were processed

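Hypothalamic RNA of 20 pigs was sequenced with paired 76-base reads, per the labels' protocols. The submitters' processing notes name HISAT2, HTSeq, FastQC, Trim Galore and DESeq2, with the build Sscrofa11.1, without versions or strand setting. The authors deposited unnormalized counts, 1 column per animal. The 5 summary lines were left out; counts on genes were 4.04 to 4.62% of entries. Symbols matched 14857 identifiers (57.4%), and positions come from RefSeq genes of the same build.

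The test was edgeR 4.0.16 under R 4.3.3 with TMM scaling, filterByExpr with a minimum of 10, robust quasi-likelihood, 1 mean per group, all 20 libraries, Benjamini-Hochberg adjustment over all tested genes, threshold 0.05. The 5 contrasts were crossbred minus Iberian overall and in each sex, male minus female, and the interaction. Intervals are 95%, and p-values set each difference against the spread between these samples, fitted over the 4 groups together. Simulated breed changes among 7090 genes were recovered in 54% (size 1.5-fold) and 91% (size 2-fold) of cases. The simulation used the trend of spread over all genes, with no outlying library. In 20 libraries the biological coefficient of variation of CHGB was 0.636 against 0.161 in that trend, and that of PCSK1 0.416 against 0.229. PCSK2, CHGA, SCG2 and SCG5 also lay above the trend, CPE and SCG3 below. The simulated shares are thus too high for the genes above it. Alternatives were RLE, DESeq2 1.42.0, no filter, the replicate number as a block, a term for low-quality alignments above 4.5%, males of the low set alone, and each library left out. Replicate numbers did not pair libraries (5 of 30 correlations over 0.1), and no libraries of a group agreed within sampling noise (chi-square per degree of freedom 2.45 to 73.8).

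The genes, the lists and the naming rule (per list, called genes and the 3 with the highest mean CPM; per gene, the 3 nearest in rank) were chosen with earlier results of these data known. Genes singled out in Iberian male replicate 5 were named after their values were seen. Some items are not reported here.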

Additional observations from a re-analysis of the deposited data

Results flagged for a closer look

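In groups of 5, a library was singled out when its gap to the nearest other took up an unusually large part of the group's range. Chance alone does this in about 1 of 20 independent groups, and 6 of 32 groups of the 8 genes met it. The 8 genes share the same libraries, so the 32 groups are not independent and that rate shows no excess. The share of all genes that met the rule is not given here. Of the 6, 5 were Iberian male replicate 5, the library with pituitary transcripts. In that library 23.6% of all tested genes were the highest of 20 libraries and 20.4% the lowest. CHGB was at 1122 CPM there against 73.3 to 106 in the other Iberian males, CHGA at 350.2 against 85.3 to 141, and PCSK1 at 21.7 against 2.84 to 5.31. PCSK2 was at 28.7 against 6.25 to 9.74, and SCG5 at 15.5 against 3.43 to 6.82. The other was CPE in crossbred male replicate 3, at 126 CPM against 90.9 to 101 in its group.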

How the results depend on the processing

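None of the 8 genes passed in any of the 27 edgeR fits, with 0.125 as the lowest adjusted p (CHGB in males, with the alignment term). DESeq2 called none of those it gave an adjusted p, which left out CHGB throughout and PCSK1, PCSK2 and SCG5 in males. Of 248 fitted values under other settings 29 changed sign, and 48 of 800 with 1 library left out. Genes called between breeds (16) were 78 with no filter, 27 with DESeq2, 0 with the alignment term and 1 with that term without Iberian male replicate 5. In males (2) they were 48, 17, 0 and 4, and 1 among males of the low set. In females (0) they were 17 with no filter, between sexes (5) 12, and for the interaction (1) 7, with 2 by DESeq2, 0 with the replicate block and 0 with the alignment term. The replicate block otherwise gave 15 between breeds, 0 in females, 3 in males and 5 between sexes. With 1 library left out the counts ran from 2 (without crossbred female replicate 4) to 23 (without Iberian male replicate 5) between breeds, 0 to 8 in females, 0 to 7 in males, 5 to 6 between sexes and 0 to 1 for the interaction. The causes were not tested.

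Signs changed as follows (log2), where female values with the alignment term rest on the split among Iberian males. With the alignment term, CHGA was -0.96 and SCG5 -0.023 in females; PCSK1 -0.21, PCSK2 -0.063 and CPE 0.075 between sexes; PCSK2 0.16, CHGA 0.29, CHGB 0.26 and SCG2 0.049 for the interaction. With that term and without Iberian male replicate 5, SCG2 was 0.28 and SCG5 0.53 between breeds, CHGA -0.23 and SCG2 0.25 in females, and PCSK1 0.11, CHGA 0.074, CHGB 0.066, SCG2 0.32 and SCG5 0.23 in males. In the same fit PCSK1 was -0.22, PCSK2 -0.0697 and CPE 0.0714 between sexes, and PCSK2 0.18, CHGA 0.30, CHGB 0.27 and SCG2 0.062 for the interaction. SCG3 between sexes was -0.0112 with RLE, -0.0066 with no filter, -0.0053 with the replicate block and -0.0109 with DESeq2.

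Leaving out 1 library at a time, values that changed sign ranged between breeds from -0.17 to 0.16 (CHGA), -0.21 to 0.0031 (SCG2), -0.015 to 0.081 (SCG3) and -0.29 to 0.078 (SCG5). In females they ranged from -0.38 to 0.17 (PCSK2) and -0.22 to 0.041 (SCG2). In males they ranged from -0.81 to 0.17 (PCSK1), -0.035 to 0.11 (CPE), -0.45 to 0.23 (CHGA), -1.87 to 0.069 (CHGB), -0.32 to 0.12 (SCG2) and -0.089 to 0.10 (SCG3). Between sexes they ranged from -0.19 to 0.32 (PCSK1), -0.0297 to 0.36 (PCSK2), -0.052 to 0.047 (CPE), -0.039 to 0.054 (SCG3) and -0.061 to 0.25 (SCG5). For the interaction they ranged from -0.061 to 0.93 (PCSK1), -0.70 to 0.10 (PCSK2), -0.17 to 0.0046 (CPE), -0.55 to 0.13 (CHGA), -1.68 to 0.27 (CHGB), -0.24 to 0.24 (SCG2) and -0.15 to 0.036 (SCG3).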

Other observations

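Markers of other cells of the tissue were also measured, and none passed between breeds or sexes. Of 8 tested oligodendrocyte markers 7 had breed values above 0 (median 0.17), led in level by MBP, a main myelin protein, at 867 ± 105 CPM in Iberian and 994 ± 185 in crossbred animals (SD, n = 10 each), a value of 0.20 on the log2 scale with an SE of 0.08 (edgeR adjusted p = 0.564). Without Iberian male replicate 5 MBP was at 0.23 and again 7 of 8 were above 0 (median 0.09). Of 7 astrocyte and tanycyte markers 2 were above 0 (median -0.04), and 3 without that library (median -0.04). Of 5 microglia and vessel markers 1 was above 0 (median -0.07), and 3 without that library (median 0.03). Choroid plexus markers had at most 2 counts in any library. In Iberian male replicate 5 the oligodendrocyte genes CNP, OLIG1 and OLIG2 were below every other library. SIX3 and SIX6, listed here as hypothalamus markers, had 37 and 25 counts there against at most 15 and 17 elsewhere. PMCH of the same list, with 3 to 16 counts elsewhere, had 0.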
